A study of Homo sapiens with 6 samples.

Results

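The DNA damage repair genes described here are 41 named genes of 9 repair and checkpoint pathways. They were taken by gene symbol from a count table of 56303 genes, and all 41 were found and passed the filter on low counts. The libraries came from SW480, a line of human colorectal adenocarcinoma cells with mutant p53. In 3 of them the cells carried shCtrl, a nonsilencing hairpin RNA, and in 3 they carried shMORC2, a hairpin RNA that lowers MORC2. MORC2 is a nuclear ATPase with a CW-type zinc finger that has been linked to gene silencing and DNA repair. Both hairpins were delivered by lentivirus and kept by puromycin selection as stable lines, which the study's methods call clonal. The labels give the knockdown the 1 name shMORC2, without a hairpin number or sequence. More than 1 hairpin against MORC2 is therefore not shown, and a difference between lines cannot be told apart from the knockdown. The labels name no DNA-damaging agent for either group.

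A break in both DNA strands is sensed by the ATM kinase, and stretches of single-stranded DNA by the ATR kinase, which pass the signal to CHEK2 and CHEK1. MDC1, RNF8, RNF168 and TP53BP1 then build a chromatin platform around the break. A break is either joined directly by the Ku proteins, DNA-PK and ligase IV, or trimmed back and repaired from the sister copy by the BRCA proteins and their partners. Crosslinks are taken up by the Fanconi anemia proteins. Damage to single bases and to single strands goes to base excision, mismatch and nucleotide excision repair.

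The knockdown was visible in the targeted transcript. MORC2 was read at 46.1, 46.4 and 48.8 CPM (counts per 1000000, with TMM scaling) in the shCtrl libraries and at 35.0, 29.3 and 27.2 CPM in the shMORC2 libraries. The groups did not overlap, and the knockdown libraries held 64.7% of the control mean (log2 fold change -0.63, SE 0.10, adjusted p = 0.000216). Total counts were 42092664 to 43434425 per library. Correlations of log2 CPM were 0.989 to 0.992 within and 0.968 to 0.975 between the groups. Of the colon epithelial markers, EPCAM, KRT8, KRT18, KRT19 and VIL1 were read at 19821 counts or more in every library and CDX1 at no more than 4. KRT20 and CDX2 rose and CEACAM5 fell, CDX2 not in every fit with a library left out. The 9 markers of other cell types summed to 2522 to 2682 counts in shCtrl and 3648 to 5526 in shMORC2, mostly CD68, which rose, as did VWF, though not with DESeq2 or in every fit with a library left out. PECAM1 was read at 576 to 860 counts and COL1A1 at 355 to 458 counts over the libraries. PTPRC, CD3E and DCN did not exceed 6 counts in any library, and the part of these markers in the results was not tested.

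Of the 41 repair genes, 16 passed the test between the groups, 5 higher and 11 lower in the shMORC2 libraries. The test was edgeR's quasi-likelihood test with Benjamini-Hochberg adjustment over all 21005 genes tested, at an adjusted p under 0.05. It called 39.5% of all genes tested, 19.9% higher and 19.6% lower. The share among the repair genes, 39.0%, was close to that background. The genes called higher made up 12.2% of the repair genes and those called lower 26.8%. A fit restricted to the 14335 genes whose mean count reached 100, all 41 repair genes included, called 47.8% of them and 14 of the repair genes. The median log2 fold change was -0.10 over the 41 repair genes and -0.01 over all genes tested.

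The changes were small. Among the 16 called repair genes the size of the log2 fold change ran from 0.21 to 0.50 with a median of 0.35, whereas the median size over all called genes was 0.55. No repair gene reached a log2 change of 1, which 1627 of the called genes did. The CPM values of the groups did not overlap for 17 of the 41 repair genes, beside 50.2% of all genes tested. In libraries of pooled cells, fewer cells expressing a gene and less RNA per cell cannot be told apart.

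A part of the spread appeared to be shared by libraries of the same replicate number. Their deviations from the group means had correlations of 0.215, 0.111 and 0.102 for numbers 1 to 3, and libraries of different numbers were not compared. No label says what a number stands for, so p-values with the replicate block rest on a pairing read from these same values. Replicate 1 held the highest of the 3 shCtrl values for 31 of the 41 repair genes, or 75.6%, beside 36.4% of all genes. In the shMORC2 group it held the highest value for 24 of them, or 58.5%, beside 36.6% of all genes. With the replicate number as a block in the fit, 23 repair genes passed, 6 higher and 17 lower, beside 49.0% of all genes, 24.4% higher and 24.5% lower. No call was lost, and RAD50, NBN, BRCA1, BRCA2, PALB2 and MSH6 were added as lower and RNF8 as higher. The count of genes called lower also moved with single libraries. It was 7 without shCtrl replicate 1 or without shMORC2 replicate 3, 17 without shMORC2 replicate 1 and 6 without shMORC2 replicate 2.

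**Figure D1:**
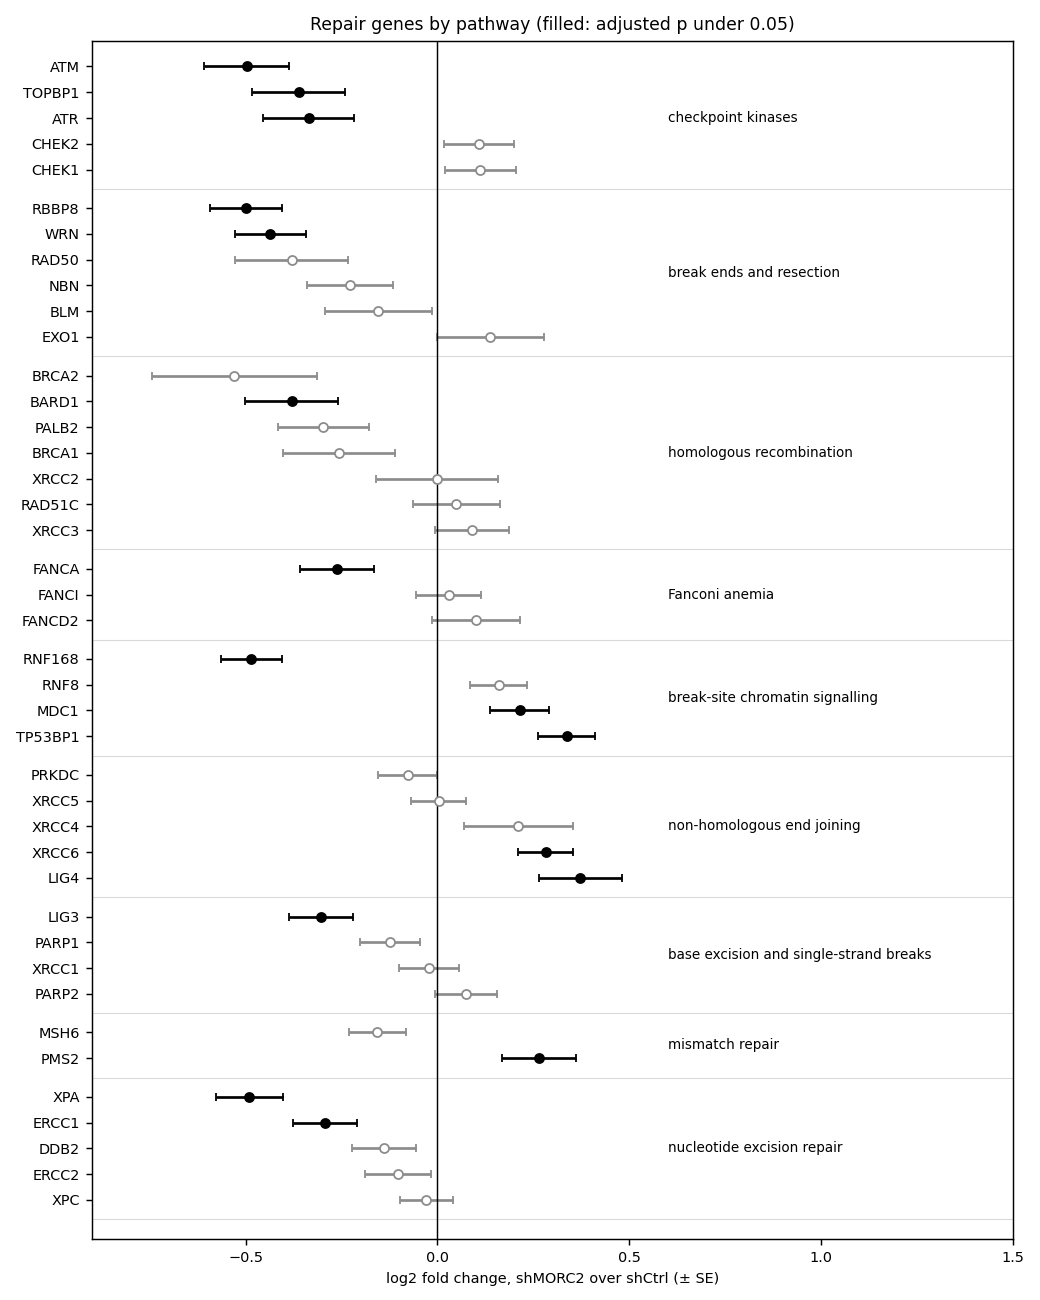
Log2 fold change of shMORC2 over shCtrl (horizontal axis) with its standard error for the 41 repair genes, grouped by pathway; filled points passed the test at an adjusted p under 0.05 with 3 libraries per group. The called genes of the checkpoint, resection, recombination and nucleotide excision groups lie left of 0, whereas XRCC6 and LIG4 of end joining and MDC1 and TP53BP1 at break sites lie right of it.

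Levels per exon length spanned a wide range, given here in RPKM (reads per kilobase of exon and per 1000000 reads) as deposited. The deposited length of a gene covers all its annotated exons together, 22317 bases for ATM, so the order also depends on the annotation. XRCC6 was the highest, at 121 ± 7.64 RPKM in shCtrl and 146 ± 3.43 in shMORC2 (SD, n = 3). It was followed by XRCC5 at 103 ± 5.64 RPKM and PARP1 at 60.8 ± 5.86 in shCtrl. XPA was the next at 26.7 ± 2.59 RPKM, and PRKDC stood at 21.0 ± 1.76. BRCA2 was the lowest, at 0.384 ± 0.0564 RPKM in shCtrl and 0.265 ± 0.0974 in shMORC2, a pair of ranges that overlapped. BARD1 came next from the bottom, at 1.58 ± 0.123 RPKM in shCtrl. Transcripts of the Ku genes XRCC6 and XRCC5 and of PARP1 were read far above those of the recombination mediators. Many neighbours in the order between BRCA1 and FANCD2 did not differ beyond their spread. Counts behind these levels averaged from 170 per library for BRCA2 to 24057 for XRCC5.

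**Figure D2:**
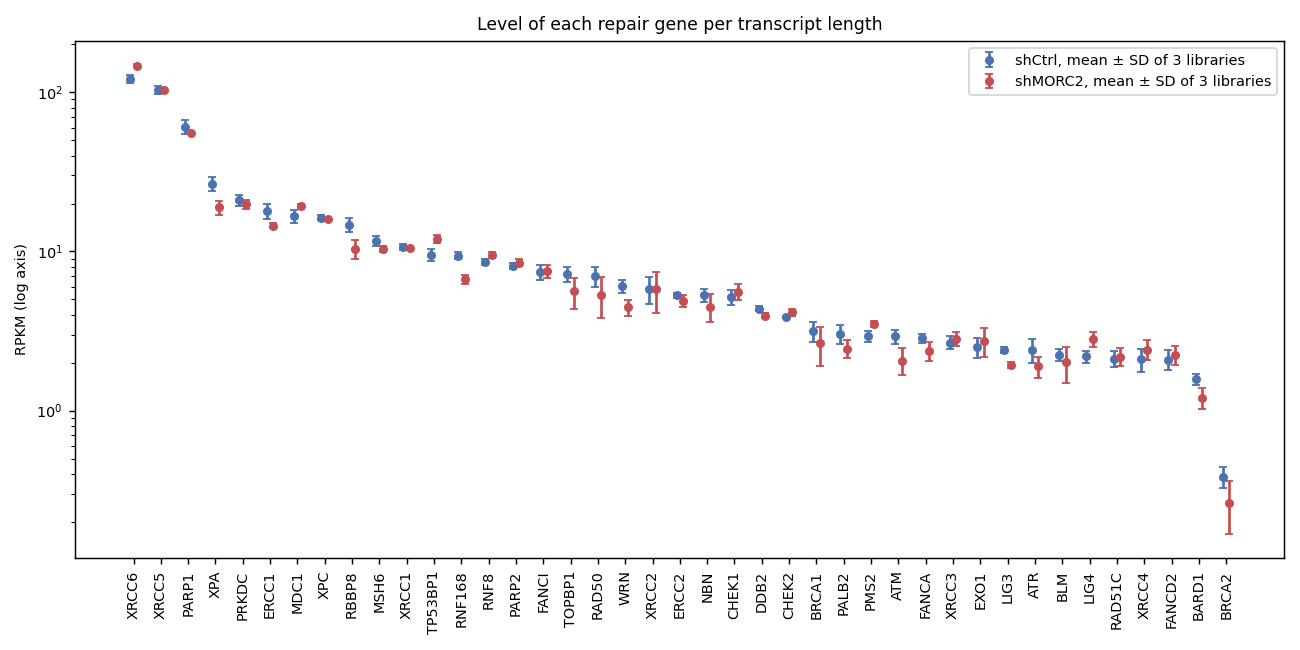
RPKM of each repair gene on a log axis, ordered by the shCtrl mean; points are means and bars the SD of 3 libraries, blue for shCtrl and red for shMORC2. XRCC6, XRCC5 and PARP1 stand above all others and BRCA2 below them, and the distance between groups is small beside the range across genes.

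Promoters were searched for letters bound by cell cycle factors. RefSeq promoter windows on GRCh38.p14, from 250 bases before to 50 bases after a transcription start, were found for 36 of the 41 genes, in 54 windows. An E2F core, the letters TTCCCGC or TTGGCGC on either strand, lay in 20 of the 54 windows (37.0%) and in 17 of the 36 genes. E2F factors drive transcription at the entry into S phase. The same letters were found in 9.23% of all 35116 windows of that table, in 12.8% of the windows of genes tested and in 32.0% of the windows of the other repair genes. Windows of the same gene overlap and are not independent. A CCAAT box, bound by NF-Y, lay in 46.3% of the windows of the 41 genes and in 48.8% of those of the other repair genes. It lay in 34.5% of the windows of genes tested and 34.6% of all windows. The CHR element, TTTGAA, lay in 9.26%, 11.2%, 10.5% and 15.2% of them. The motifs were searched on both strands, and ATTGGCGC holds both a CCAAT box and an E2F core. An E2F core was present in 6 of 15 called repair genes with a window and in 11 of 21 that were not called. Stretches are printed with the genes they belong to, in lower case with E2F cores and CCAAT boxes in capitals. They hold bases before the start that no exon of GENCODE v44 or of the deposited annotation covers.

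Of the 5 checkpoint genes, 3 fell and 2 were not called. ATM, the kinase that answers double-strand breaks, was read at 70.0, 65.0 and 60.2 CPM in shCtrl and at 54.6, 44.9 and 38.8 CPM in shMORC2. Every knockdown library lay below every control library, at 70.9% of the control mean (log2 fold change -0.50, SE 0.11, adjusted p = 0.00325). ATR, the kinase that answers single-stranded DNA, was read at 35.2, 27.9 and 26.8 CPM in shCtrl and at 27.0, 23.3 and 20.8 CPM in shMORC2. Its ranges overlapped by the highest knockdown library (log2 fold change -0.34, SE 0.12, adjusted p = 0.0381). TOPBP1, the activator of ATR, was read at 51.7, 43.1 and 46.2 CPM in shCtrl and at 44.8, 31.4 and 33.4 CPM in shMORC2. It also overlapped through replicate 1 of the knockdown (log2 fold change -0.36, SE 0.12, adjusted p = 0.0293). The calls of ATR and TOPBP1 were lost when replicate 1 of shCtrl or replicate 2 or 3 of shMORC2 was left out, and that of TOPBP1 also without replicate 3 of shCtrl. Without replicate 1 of shCtrl the log2 fold change of ATR was -0.20, and with a trend on GC content and length removed it was -0.22. Over all 15 alternatives ATR passed in 7 and TOPBP1 in 9, and neither passed with limma on RPKM. The downstream kinases were not called, with log2 fold changes of 0.11 (SE 0.09) for CHEK1 and 0.11 (SE 0.09) for CHEK2.

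The ratio of ATM to ATR, from their RPKM in the same library, was 1.23 ± 0.0999 in shCtrl and 1.08 ± 0.0445 in shMORC2 (SD, n = 3). The ranges overlapped, with an exact permutation p = 0.2, two-sided. ATM lies head to head with NPAT, an activator of histone genes. NPAT and C11orf65 together cover 1.15% of the ATM exon bases on the other strand, and C11orf65 was not called (log2 fold change -0.05, SE 0.22). NPAT fell too (log2 fold change -0.44, SE 0.13, adjusted p = 0.0202), a call lost without replicate 1 or 2 of shCtrl or replicate 2 or 3 of shMORC2.

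Among 15 other checkpoint genes, 4 rose and 4 fell. RAD1, a ring subunit of the 9-1-1 clamp, had a log2 fold change of 0.36 (SE 0.10, adjusted p = 0.0102), and the phosphatase CDC25C one of 0.36 (SE 0.09, adjusted p = 0.00498). ETAA1, an activator of ATR, fell by 0.50 on the log2 scale (SE 0.14, adjusted p = 0.0130) and the replication fork protein TIMELESS by 0.48 (SE 0.09, adjusted p = 0.00105). The call of ETAA1 was lost without replicate 2 or 3 of shMORC2, and that of RAD1 without replicate 2 of shCtrl.

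Of the 6 genes that open and trim break ends, 2 fell. RBBP8 encodes CtIP, which starts the trimming. It was read at 81.0, 69.3 and 73.2 CPM in shCtrl and at 59.5, 50.2 and 48.4 CPM in shMORC2. The groups did not overlap, and the change was of the size of those of ATM, XPA and RNF168 (log2 fold change -0.50, SE 0.09, adjusted p = 0.000988). Its promoter stretch is printed because the gene passed in every alternative, and it holds none of the motifs searched. WRN, the helicase and exonuclease of Werner syndrome, was read at 36.9, 32.6 and 32.6 CPM in shCtrl and at 27.8, 24.2 and 23.4 CPM in shMORC2. It likewise did not overlap (log2 fold change -0.44, SE 0.09, adjusted p = 0.00228).
RBBP8, chr18:22933078-22933314, plus strand: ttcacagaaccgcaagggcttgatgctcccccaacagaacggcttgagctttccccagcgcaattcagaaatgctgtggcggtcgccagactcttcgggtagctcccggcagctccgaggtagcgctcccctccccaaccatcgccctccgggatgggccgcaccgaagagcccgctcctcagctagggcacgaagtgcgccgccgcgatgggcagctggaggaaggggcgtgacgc

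RAD50 and NBN encode partners of the MRE11 nuclease in the complex that first holds a break. RAD50 was read at 76.7, 67.3 and 59.9 CPM in shCtrl and at 67.9, 47.1 and 41.8 CPM in shMORC2 (log2 fold change -0.38, SE 0.15, adjusted p = 0.0558, and 1.45e-05 with the replicate block). NBN was read at 35.0, 31.8 and 30.8 CPM in shCtrl and at 33.3, 24.4 and 25.6 CPM in shMORC2 (log2 fold change -0.23, SE 0.11, adjusted p = 0.122, and 0.00896 with the block). For both genes replicate 1 of the knockdown reached into the control range. RAD50 passed in 7 and NBN in 2 of 15 alternatives, the block among them. The MRE11 gene, listed as MRE11A, passed without the block and fell by 0.48 on the log2 scale (SE 0.10, adjusted p = 0.00235). RAD50 to NBN stood at an RPKM ratio of 1.31 ± 0.0807 in shCtrl and 1.18 ± 0.131 in shMORC2, ranges that overlapped (SD, n = 3, exact permutation p = 0.2, two-sided).

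EXO1, the exonuclease that extends the trimming, and BLM, the Bloom syndrome helicase, were not called, with log2 fold changes of 0.14 (SE 0.14) and -0.15 (SE 0.14). Of 8 other resection genes, 3 fell and 5 were not called. Besides MRE11A, RMI2, a partner of BLM, fell by 0.67 on the log2 scale (SE 0.15, adjusted p = 0.00321). The BLM promoter is shown as an example of a stretch that combines an E2F core with 2 CCAAT boxes in a gene that was not called.
BLM, chr15:90717142-90717326, plus strand: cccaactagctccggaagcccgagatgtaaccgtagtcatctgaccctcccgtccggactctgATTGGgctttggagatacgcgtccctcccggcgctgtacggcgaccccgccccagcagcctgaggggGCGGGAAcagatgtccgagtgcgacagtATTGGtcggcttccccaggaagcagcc

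Homologous recombination held 7 of the genes, and BARD1 was the sole call among them. BARD1, the partner of BRCA1 in a ubiquitin ligase, was read at 10.2, 9.20 and 9.24 CPM in shCtrl and at 8.36, 6.97 and 6.62 CPM in shMORC2. The groups did not overlap (log2 fold change -0.38, SE 0.12, adjusted p = 0.0227), but the call needed replicate 1 of shCtrl and replicates 2 and 3 of shMORC2 and was lost with limma on log2(RPKM + 1), where the value was -0.23. BRCA1 was read at 32.2, 25.7 and 26.5 CPM in shCtrl and at 30.2, 21.7 and 18.9 CPM in shMORC2. Here replicate 1 of the knockdown lay above 2 control libraries (log2 fold change -0.26, SE 0.15, adjusted p = 0.185, and 0.00506 with the replicate block). The RPKM ratio of BARD1 to BRCA1 was 0.50 ± 0.0323 in shCtrl and 0.465 ± 0.0550 in shMORC2, ranges that overlapped (SD, n = 3, exact permutation p = 0.6, two-sided).

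BRCA2, a mediator of recombination, was read at 4.93, 5.15 and 4.01 CPM in shCtrl and at 4.42, 3.17 and 2.16 CPM in shMORC2. Its log2 fold change was -0.53 with the largest standard error of the 41 genes, 0.22 (adjusted p = 0.0665, and 0.00314 with the replicate block). It was -0.30 without replicate 3 of shMORC2 and -0.82 without replicate 1, where it passed (adjusted p = 0.00339). PALB2, the bridge between BRCA1 and BRCA2, had a log2 fold change of -0.30 (SE 0.12, adjusted p = 0.0602, and 0.0110 with the block). RAD51C, XRCC2 and XRCC3, which assist recombination, had log2 fold changes of 0.05, -0.00 and 0.09, none of which passed either fit. The exons of XRCC3 share 76.7% of their bases with KLC1 on the other strand, so its value is uncertain. Of 14 other recombination genes, 12 were not called, and the motor protein RAD54L fell by 0.39 on the log2 scale (SE 0.10, adjusted p = 0.00886).

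FANCA, a subunit of the Fanconi anemia core complex, was read at 28.0, 28.9 and 26.4 CPM in shCtrl and at 25.7, 20.2 and 23.5 CPM in shMORC2. Control and knockdown libraries were set apart by a narrow gap (log2 fold change -0.26, SE 0.10, adjusted p = 0.0451), and the call was lost with DESeq2 and when any library other than shMORC2 replicate 1 was left out. Without shMORC2 replicate 2 the value was -0.17, and FANCA passed in 4 of 15 alternatives. ZNF276, which shares 23.6% of the FANCA exon bases on the other strand, fell as well (log2 fold change -0.32, SE 0.10, adjusted p = 0.0173, lost without shCtrl replicate 2 or shMORC2 replicate 2 or 3), and whether their reads were separated by strand is not given in the sources used here. FANCD2 and FANCI form the clamp that the core complex modifies. FANCD2 was read at 19.7, 15.2 and 17.5 CPM in shCtrl and at 21.1, 17.0 and 18.0 CPM in shMORC2 (log2 fold change 0.10, SE 0.11, adjusted p = 0.516). FANCI was read at 62.9, 54.7 and 54.6 CPM in shCtrl and at 62.7, 54.7 and 58.3 CPM in shMORC2 (log2 fold change 0.03, SE 0.09, adjusted p = 0.807). The ranges of the groups overlapped for both genes, and their RPKM ratio, FANCI to FANCD2, was 3.56 ± 0.278 in shCtrl and 3.39 ± 0.162 in shMORC2 (SD, n = 3, exact permutation p = 0.6, two-sided). Among 10 other genes of the pathway, 3 rose and 3 fell. FANCM, the translocase that brings the core complex to stalled forks, fell by 0.88 on the log2 scale (SE 0.22, adjusted p = 0.00626), and FANCE by 0.59 (SE 0.13, adjusted p = 0.00315). FANCF, an adaptor subunit, rose by a log2 fold change of 0.29 (SE 0.11, adjusted p = 0.0440), as did the E2 enzyme UBE2T by 0.28 (SE 0.08, adjusted p = 0.0151).

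Of the 4 genes of break-site chromatin signalling, 2 rose and 1 fell, and the CPM ranges of the groups were apart for all 4. RNF168, the ubiquitin ligase that marks H2A for TP53BP1, was read at 51.4, 47.6 and 51.6 CPM in shCtrl and at 36.2, 37.8 and 33.7 CPM in shMORC2. It fell to 71.5% of the control mean and had the smallest adjusted p of the 41 genes (log2 fold change -0.48, SE 0.08, adjusted p = 0.000373). TP53BP1, the reader of that mark, which holds back resection, was read at 132, 121 and 118 CPM in shCtrl and at 160, 150 and 158 CPM in shMORC2. It rose to 126% of the control mean (log2 fold change 0.34, SE 0.07, adjusted p = 0.00314). MDC1, the scaffold that binds phosphorylated H2AX, was read at 146, 130 and 128 CPM in shCtrl and at 155, 152 and 161 CPM in shMORC2. Its rise was smaller (log2 fold change 0.21, SE 0.08, adjusted p = 0.0384) and was not called when replicate 2 or 3 of either group was left out, nor without TMM scaling, without the filter on low counts or with limma. RNF8, the ligase upstream of RNF168, had a log2 fold change of 0.16 (SE 0.07, adjusted p = 0.107, and 0.0347 with the replicate block).

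In the same library the RPKM ratio of TP53BP1 to RNF168 was 1.06, 1.05 and 0.939 in shCtrl and 1.82, 1.63 and 1.94 in shMORC2. The means were 1.01 ± 0.0648 and 1.80 ± 0.154 (SD, n = 3), a difference of 0.82 on the log2 scale without overlap. Since TP53BP1 rose and RNF168 fell without overlap in these same libraries, that outcome was fixed beforehand and adds no support to either change. The exact permutation p was 0.1, two-sided, the smallest that 3 libraries against 3 can give, and 0.3 after adjustment over the 6 ratios tested. The adjusted p was 0.3 also for ATM to ATR and RAD50 to NBN, and 0.6 for BARD1 to BRCA1 and FANCI to FANCD2. TP53BP1 shares 28.7% of its exon bases with TUBGCP4 on the other strand, which fell (log2 fold change -0.33, SE 0.07, adjusted p = 0.00374), against the direction of TP53BP1. The RNF168 promoter is shown because the gene had the smallest adjusted p, and its stretch holds none of the motifs searched.
RNF168, chr3:196503769-196504018, minus strand: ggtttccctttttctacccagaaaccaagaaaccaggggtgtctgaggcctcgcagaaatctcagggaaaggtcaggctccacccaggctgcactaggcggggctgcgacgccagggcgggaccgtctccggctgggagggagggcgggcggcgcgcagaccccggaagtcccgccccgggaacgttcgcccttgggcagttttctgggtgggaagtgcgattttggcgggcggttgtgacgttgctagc

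Of 12 other genes of this group, 5 fell and 2 rose. RNF169, which competes for the RNF168 mark, fell by 0.94 on the log2 scale (SE 0.09, adjusted p = 5.19e-06), and RIF1, the effector of TP53BP1, fell by 0.79 (SE 0.16, adjusted p = 0.00170). BABAM1, a subunit of the BRCA1-A complex, rose (log2 fold change 0.48, SE 0.08, adjusted p = 0.000361). MAD2L2, the shieldin subunit REV7, rose as well (log2 fold change 0.27, SE 0.10, adjusted p = 0.0396). TP53BP1 and its effector RIF1 thus moved in opposite directions.

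**Figure D3:**
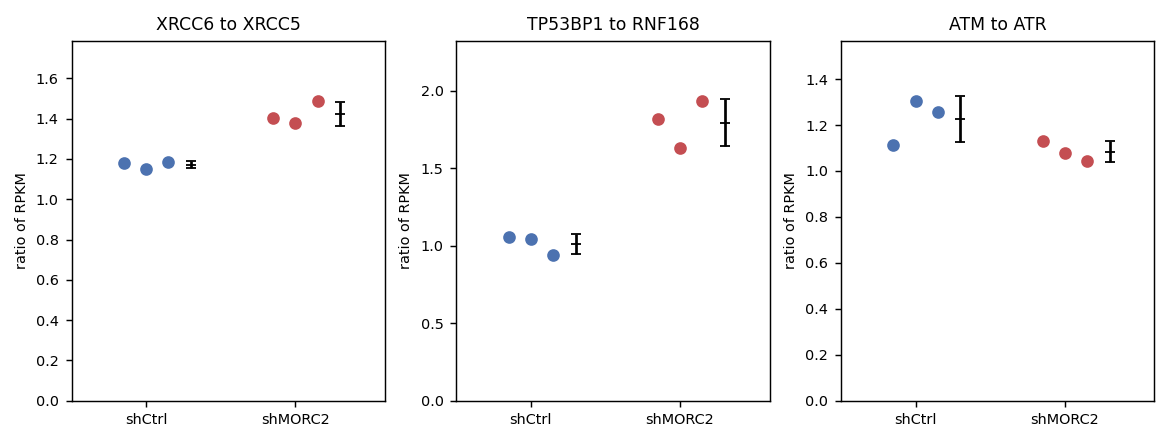
Ratio of RPKM between 2 repair genes in each library (points; blue shCtrl, red shMORC2) with the mean and SD of 3 libraries (bars), on axes that start at 0. XRCC6 to XRCC5 and TP53BP1 to RNF168 do not overlap between the groups, whereas ATM to ATR does. The ratios without overlap restate changes of their genes in the same libraries.

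Of the 5 end joining genes, 2 rose and 3 were not called. XRCC6, the Ku70 subunit, was read at 415, 375 and 401 CPM in shCtrl and at 478, 478 and 493 CPM in shMORC2. It rose to 122% of the control mean without overlap (log2 fold change 0.28, SE 0.07, adjusted p = 0.00751). With a trend on GC content and length removed the value was 0.18 (adjusted p = 0.0484). XRCC5, the Ku80 subunit that pairs with it, was read at 585, 541 and 564 CPM in shCtrl and at 567, 577 and 550 CPM in shMORC2. The XRCC5 ranges overlapped fully (log2 fold change 0.00, SE 0.07, adjusted p = 0.976). The RPKM ratio of XRCC6 to XRCC5 was 1.18, 1.15 and 1.18 in shCtrl and 1.40, 1.38 and 1.49 in shMORC2. The means were 1.17 ± 0.0171 and 1.42 ± 0.0589 (SD, n = 3), and the libraries of the groups did not overlap. The exact permutation p was 0.1, two-sided, the smallest possible here, and 0.3 after adjustment over the 6 ratios. With XRCC6 higher without overlap and XRCC5 level in these same libraries, the ratio restates the rise of XRCC6 and adds no support to it.

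LIG4, the ligase that seals the joined ends, was read at 10.3, 9.25 and 9.21 CPM in shCtrl and at 13.1, 13.0 and 11.1 CPM in shMORC2. All knockdown libraries lay above all control libraries (log2 fold change 0.37, SE 0.11, adjusted p = 0.0155), and the call needed replicates 2 and 3 of shCtrl and replicate 2 of shMORC2. XRCC4, the partner of LIG4, and PRKDC, the catalytic subunit of DNA-PK, were not called, with log2 fold changes of 0.21 (SE 0.14) and -0.08 (SE 0.08). Of 7 other end joining genes, APLF rose (log2 fold change 0.46, SE 0.14, adjusted p = 0.0174) and 3 fell. POLQ, the polymerase of the alternative end joining route, fell by 0.41 on the log2 scale (SE 0.13, adjusted p = 0.0198). DCLRE1C, the Artemis nuclease, also fell by 0.41 (SE 0.10, adjusted p = 0.00627).

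Repair of bases and single strands held 4 of the genes. LIG3, the ligase that works with XRCC1, was read at 30.5, 32.1 and 30.5 CPM in shCtrl and at 23.2, 26.4 and 25.8 CPM in shMORC2. It fell without overlap (log2 fold change -0.30, SE 0.08, adjusted p = 0.0106). RFFL, which with CCT6B covers 30.5% of the LIG3 exon bases on the other strand, fell too (log2 fold change -0.45, SE 0.09, adjusted p = 0.00225). XRCC1 was not called (log2 fold change -0.02, SE 0.08), nor were the poly(ADP-ribose) polymerases PARP1 (-0.12, SE 0.08) and PARP2 (0.07, SE 0.08). Among 18 other genes, 4 rose and 2 fell. The flap nuclease FEN1 (log2 fold change 0.50, SE 0.14, adjusted p = 0.0115) and the glycosylase MPG (0.42, SE 0.12, adjusted p = 0.0122) rose. The glycosylases MBD4 and NTHL1 fell by 0.65 (SE 0.08, adjusted p = 3.87e-05) and 0.52 (SE 0.09, adjusted p = 0.000626) on the log2 scale.

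Of the mismatch repair genes, PMS2 was read at 12.2, 11.5 and 10.9 CPM in shCtrl and at 13.7, 13.4 and 14.5 CPM in shMORC2. It encodes a subunit of the endonuclease that nicks the strand to be replaced, and it was called higher without overlap (log2 fold change 0.26, SE 0.10, adjusted p = 0.0443). The call was lost with DESeq2 and when any library other than shCtrl replicate 1 was left out, and it passed in 4 of 15 alternatives. PMS2 is uncertain also because 11 genes named as its pseudogenes were read at 3470 to 4356 counts together, against 448 to 617 counts for PMS2 itself. They were picked by name, and how alike their sequences are to PMS2 was not measured. MSH6, which recognises the mismatch, had a log2 fold change of -0.16 (SE 0.07, adjusted p = 0.108, and 0.0286 with the replicate block). By edgeR 0 of 5 other mismatch repair genes passed, 1 had an unadjusted p under 0.05 and DESeq2 called 0. With the replicate block MLH3 passed as lower (log2 fold change -0.28, adjusted p = 0.0126).

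Nucleotide excision repair held 5 of the genes, of which 2 fell. XPA, which checks the opened lesion, was read at 51.4, 50.3 and 44.6 CPM in shCtrl and at 37.6, 32.1 and 34.4 CPM in shMORC2. It fell to 71.2% of the control mean without overlap (log2 fold change -0.49, SE 0.09, adjusted p = 0.000729). ERCC1, the partner of the XPF nuclease, was read at 109, 90.3 and 100.5 CPM in shCtrl and at 78.2, 80.3 and 85.7 CPM in shMORC2. It fell by 0.29 on the log2 scale without overlap (SE 0.08, adjusted p = 0.0133), a call lost without shMORC2 replicate 2. CD3EAP, which covers 28.6% of the ERCC1 exon bases on the other strand, fell too (log2 fold change -0.43, SE 0.10, adjusted p = 0.00419). The damage sensors XPC and DDB2 and the TFIIH helicase ERCC2 were not called, with log2 fold changes of -0.03 (SE 0.07), -0.14 (SE 0.08) and -0.10 (SE 0.09). LSM3 and other genes cover 30.4% of the XPC exon bases on the other strand, and LSM3 rose (log2 fold change 0.81, SE 0.08, adjusted p = 9.97e-06). The promoters of ERCC1, DDB2 and XPA are shown to set stretches with an E2F core, in the first and second, beside a stretch with no motif in XPA.
ERCC1, chr19:45423606-45423778, minus strand: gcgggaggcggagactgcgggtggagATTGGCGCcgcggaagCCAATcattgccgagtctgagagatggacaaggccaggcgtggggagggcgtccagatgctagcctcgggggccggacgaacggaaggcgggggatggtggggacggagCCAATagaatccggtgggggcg
DDB2, chr11:47214724-47214941, plus strand: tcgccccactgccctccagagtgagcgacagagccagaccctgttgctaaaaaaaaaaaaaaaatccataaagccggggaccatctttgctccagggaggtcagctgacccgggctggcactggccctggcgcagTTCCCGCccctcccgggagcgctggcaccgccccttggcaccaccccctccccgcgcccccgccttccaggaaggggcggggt
XPA, chr9:97697358-97697590, minus strand: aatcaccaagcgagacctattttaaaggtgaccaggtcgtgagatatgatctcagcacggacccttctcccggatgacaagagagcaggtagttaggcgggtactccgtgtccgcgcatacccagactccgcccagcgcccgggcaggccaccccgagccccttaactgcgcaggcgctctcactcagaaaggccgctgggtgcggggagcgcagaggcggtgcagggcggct

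Of 19 other nucleotide excision genes, 5 rose and 6 fell. CETN2, a centrin that stabilises XPC, rose to 196% of the control mean (log2 fold change 0.97, SE 0.09, adjusted p = 5.1e-06). GTF2H3, a TFIIH subunit, rose by a log2 fold change of 0.47 (SE 0.12, adjusted p = 0.00626), and XAB2, a partner of XPA, fell by 0.52 (SE 0.09, adjusted p = 0.000512). RAD23B, which holds XPC, fell by 0.41 (SE 0.07, adjusted p = 0.000492). Over all 108 other repair genes, 20 rose and 27 fell, or 43.5% called, with a median log2 fold change of -0.06. With the replicate block 32 rose and 40 fell. The calls of UBE2T, FANCF, MAD2L2, APLF, POLQ, FEN1 and MPG were lost in at least 1 fit with a library left out, and that of UBE2T also with the GC and length trend removed, where its value was 0.18. FANCF passed in only 4 of 15 alternatives, and its call was lost with DESeq2, with limma and with that trend removed. The widest changes of both lists lay outside the 41 genes, in CETN2, RNF169 and FANCM.

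**Figure D4:**
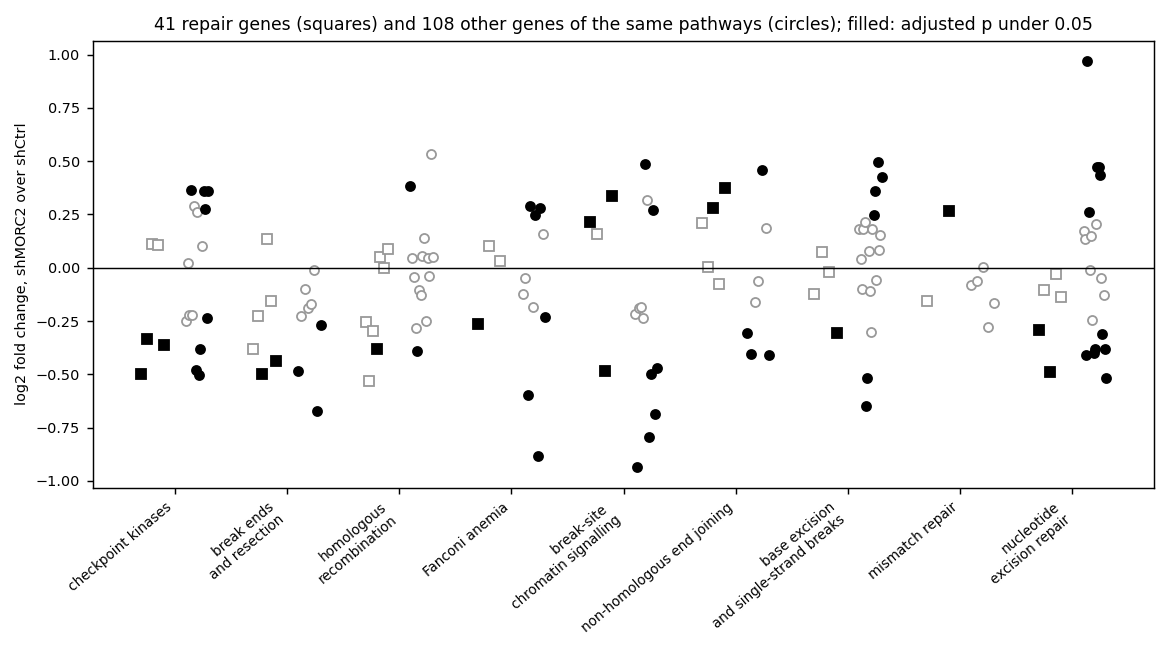
Log2 fold change of shMORC2 over shCtrl for the 41 repair genes (squares) and 108 other genes of the same pathways (circles); filled symbols passed the test at an adjusted p under 0.05. CETN2 at 0.97 and RNF169 at -0.94 lie beyond every square, and the filled symbols of most pathways lie on both sides of 0.

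The plot of single libraries shows how narrow many of the gaps were.

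**Figure D5:**
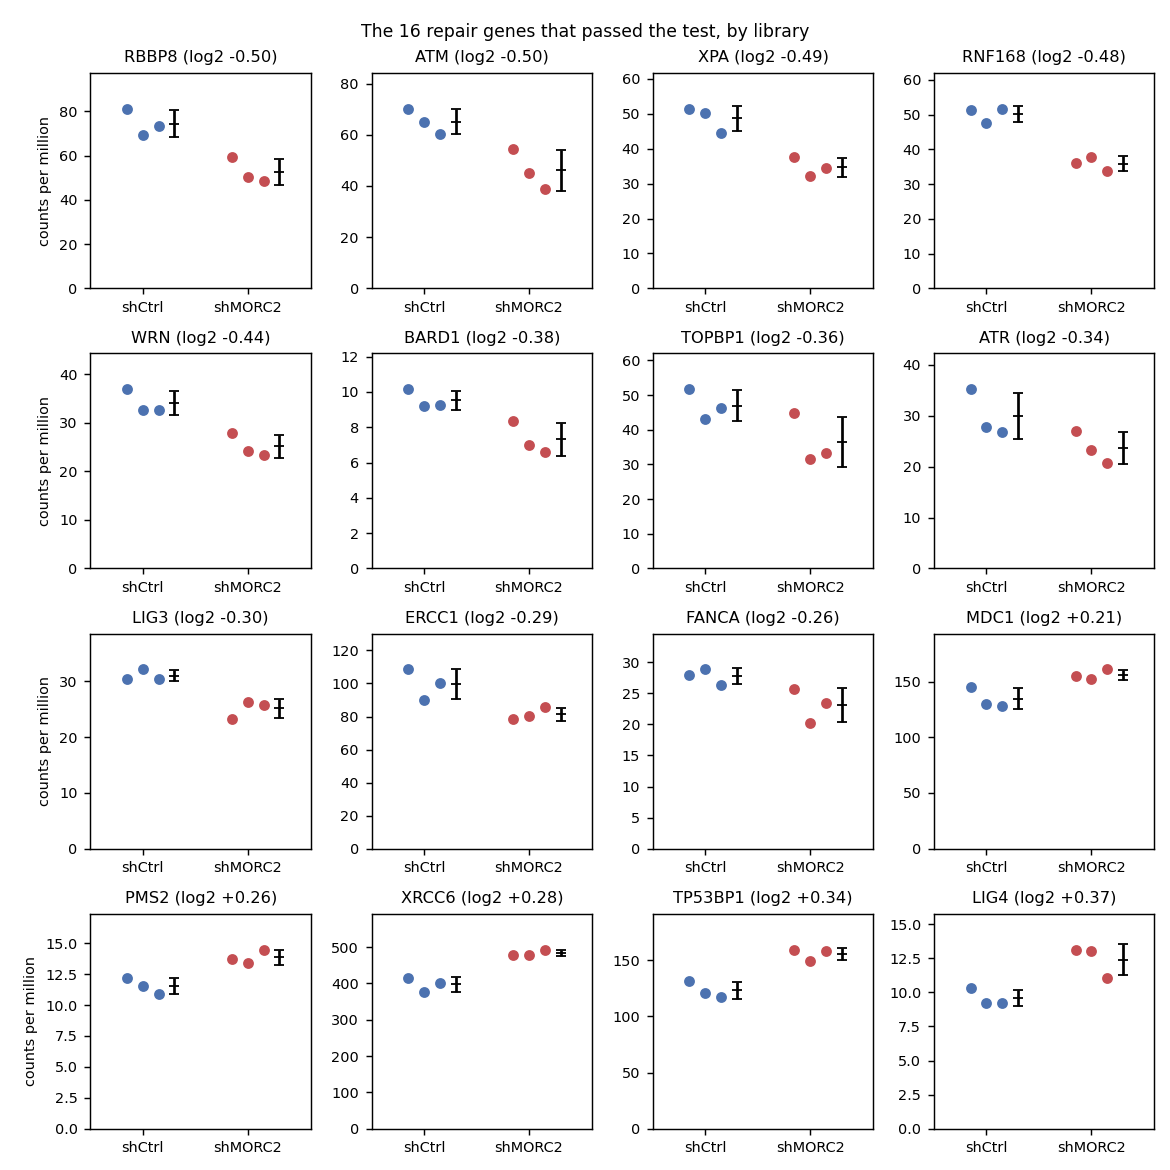
CPM of the 16 called repair genes in each library (points, replicates 1 to 3 from left to right; blue shCtrl, red shMORC2) with the mean and SD of 3 libraries (bars), on axes that start at 0. TOPBP1 and ATR overlap between the groups and the other 14 do not.

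Genes of the cell cycle and of the p53 response were read beside the repair genes, since many repair genes follow the cycle. Of 18 S phase genes, 5 rose, among them GINS1 (log2 fold change 0.80, SE 0.12, adjusted p = 0.000156) and RRM2 (0.59, SE 0.09, adjusted p = 0.000178), and CDT1 fell by 0.42 (SE 0.12, adjusted p = 0.0156). Of 14 mitotic genes, CDK1 and CCNB1 rose and 3 fell, with CENPE falling by 0.99 (SE 0.20, adjusted p = 0.00177). Of 14 genes of the p53 response, 3 rose and 3 fell, from TP53I3 at 0.91 (SE 0.15, adjusted p = 0.000401) to SESN2 at -1.11 (SE 0.25, adjusted p = 0.00366, and -0.63 without shCtrl replicate 2) and BBC3 at -1.75 (SE 0.20, adjusted p = 2.16e-05). The calls of CDT1 and CCNB1 were lost in at least 1 fit with a library left out. None of the 3 lists was called in a single direction, and their part in the repair genes' values was not tested.

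Base composition also differed from that of other genes. The exons of the repair genes had a median GC content of 43.4% and a median length of 6156 bases, against 49.3% and 3555 bases over all genes. Across the 41 genes, which are not independent replicates, the log2 fold change had a Spearman rho of 0.24 with GC content and -0.26 with exon length, against 0.04 and -0.10 over 20993 genes. After a trend on GC content and length was removed, 16 repair genes passed, 4 higher and 12 lower. In that fit 3 calls were lost, those of ATR, FANCA and PMS2, and 3 were gained, those of RAD50, PALB2 and DDB2, all as lower.

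A deposited table of alternative splicing lists 1449 events in 1181 genes. Of these events, 8 lie in 8 of the repair genes. Its 2 groups are not named, so the values carry no knockdown direction. The rows were listed by the authors' own comparison, which leaves them as a description with no test. Skipped exons were listed in BARD1, ERCC1, EXO1, MDC1 and RAD50, and mutually exclusive exons in FANCA, RAD51C and XRCC1. The events of EXO1 and RAD50 rested on 2 to 6 and 1 to 11 reads per library, too few for a level.

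The best covered skipped exon was that of ERCC1, exon 8 of the canonical transcript, with 72 bases and no shift of the reading frame. Its inclusion level, from junction and exon reads per effective length, was 90.0%, 71.6% and 78.6% in the first group and 97.7%, 84.7% and 89.8% in the second, on 67 to 108 reads. The means of 80.1% ± 9.31 and 90.7% ± 6.54 (SD, n = 3) stood apart by about their spread, and the ranges overlapped. In BARD1 the listed exon is exon 3 of the canonical transcript, with 149 bases, which shifts the frame when skipped. Inclusion was 77.4%, 88.2% and 86.7% in the first group and 100%, 86.3% and 100% in the second, on 15 to 37 reads, with overlap. In MDC1 exon 8, of 792 bases, was included at 33.4%, 30.4% and 32.4% in the first group and at 23.5%, 14.6% and 15.6% in the second, without overlap, on 30 to 45 reads. For the mutually exclusive pairs the level is the share of the exon that the table counts as included. In FANCA it was 51.6%, 53.8% and 48.0% in the first group and 75.9%, 88.2% and 62.4% in the second, on 12 to 24 reads. In RAD51C it was 91.3%, 86.7% and 97.5% against 76.2%, 81.4% and 86.5%, on 44 to 57 reads. In XRCC1 it was 81.2%, 60.5% and 57.9% against 48.6%, 33.5% and 53.2%, on 15 to 39 reads. The ranges of these 3 pairs did not overlap, in RAD51C by a narrow gap. How often the ranges of all listed events are apart was not counted. Since a comparison of these same groups picked the rows, the gaps, that of MDC1 included, are no result about the repair genes. The exons of ERCC1 and BARD1 are shown as the skipped exons in genes that also fell in their gene counts. They were read from the hg38 reference genome.
ERCC1, chr19:45413963-45414034, minus strand: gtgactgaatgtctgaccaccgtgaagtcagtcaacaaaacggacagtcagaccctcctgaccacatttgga
BARD1, chr2:214792297-214792445, minus strand: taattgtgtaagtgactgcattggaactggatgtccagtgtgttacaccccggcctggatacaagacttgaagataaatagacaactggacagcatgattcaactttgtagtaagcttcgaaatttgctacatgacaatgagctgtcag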

How the data were processed

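RNA of 3 shCtrl and 3 shMORC2 SW480 libraries was sequenced after poly(A) selection with a stranded kit, and the study's methods describe replicate experiments and molecular identifiers. Per the submitters' processing notes the tools were Trimmomatic 0.36, STAR 2.5.3a, featureCounts of Subread 1.5.1 and edgeR 3.12.1 with build GRCh38; whether duplicates were collapsed and which strand setting was used are not given in the sources used here. The deposited counts are whole reads per gene from the authors, and the deposited RPKM values were computed by the authors from reads per gene length; neither was altered before use. The deposited splicing table, made by the authors with rMATS, holds read counts of 2 unnamed groups beside the authors' own p-values and differences, which were not used.

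Groups and replicate numbers were taken from the sample titles. Counts were filtered with filterByExpr, scaled by TMM and tested with edgeR 4.0.16 in R 4.3.3 (quasi-likelihood test, group only, Benjamini-Hochberg over 21005 genes); standard errors are the log2 fold change over the root of F. Before use the test was checked on simulated counts. Alternatives were DESeq2 1.42.0, limma 3.58.1 on log2 RPKM, with a pseudocount of 1 or 0.1 and a minimum mean of 1 RPKM, other filters and scaling, each library left out, and a replicate block. The trends on GC content and length were added after seeing the data. Same-numbered libraries deviated together from their group means (correlations 0.215, 0.111 and 0.102), so the numbers were taken to pair them; this rests on the values alone, since no label says what a number stands for. P-values measure the spread between these libraries, which may be that of cultures of the same 2 lines.

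The 41 genes, the pathway lists and the tests were chosen with earlier results of these data known. Named were MORC2, every repair gene, with values in every library for called genes, for the highest and lowest RPKM and for partners of a called gene, and of each other list the called genes with the largest changes. Some genes of these lists are not reported here. Genes that share exon bases with a repair gene were named after their values were seen. RPKM ratios within a library were compared by the exact permutation test. Sharing of exon bases was counted from the deposited exon coordinates.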

Additional observations from a re-analysis of the deposited data

How the results depend on the processing

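All 16 called repair genes kept their direction under the 15 alternatives of the fit, and 8 of them (ATM, RBBP8, WRN, RNF168, TP53BP1, XRCC6, LIG3 and XPA) passed in each. The repair genes called were 10 with limma on log2(RPKM + 1), where BRCA2 fell under the minimum, and 8 to 21 with each library left out. Those called higher were 3 without TMM scaling, 3 without the filter on low counts, 3 with either RPKM pseudocount and 2 to 5 with each library left out. Of the latter, 2 were left without replicate 2 or 3 of shCtrl or replicate 2 of shMORC2, and 3 without replicate 3 of shMORC2. Those called lower were 17 with the replicate block, also with the GC and length trend removed, 7 with limma on log2(RPKM + 1) and 6 to 17 with each library left out. Of the genes edgeR called, 0 rose and 1 fell by at least 0.5 on the log2 scale. Without shMORC2 replicate 2 or 3 the repair genes called were 8 and 10, with 1 sample less in the knockdown group. Of the 108 other repair genes, 72 were called with the replicate block, 30 with limma on log2(RPKM + 0.1) and 30 to 56 with each library left out. The replicate block added the 7 repair genes named above and changed no other call among the 41. MORC2 passed in every alternative. Restricted to the 250 bases before the start, the E2F core was held by 24.1% of the windows. The cause of these moves was not tested.

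Reversed signs were limited to 6 genes that were not called, all near 0. XRCC5 was at -0.0052 on the log2 scale without TMM scaling, -0.0042 with limma at either pseudocount, -0.0202 with the GC and length trend removed and -0.0201 when the block was added to that. XRCC2 was at 0.0091 with a minimum mean of 100 counts. With libraries left out, the log2 fold change of EXO1 went from -0.0283 to 0.24, of RAD51C from -0.0299 to 0.14, of XRCC2 from -0.24 to 0.14, of FANCI from -0.0199 to 0.0991, of XRCC5 from -0.0266 to 0.0299 and of XRCC1 from -0.0704 to 0.0047. BRCA2, with the fewest counts of the 41 genes, had the largest standard error.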
